A study of Homo sapiens with 6 samples.

Results

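The BCL2 family apoptosis regulators were examined in 6 BxPC-3 xenograft tumors, 3 from control mice and 3 from mice given deferasirox (DFX), an oral iron chelator. They were the 3 anti-apoptotic genes BCL2, BCL2L1 and MCL1, the 2 effector genes BAX and BAK1, and the 5 BH3-only genes BID, BAD, BBC3, PMAIP1 and BCL2L11. A spot of the array belonged to the set when it was not a control spot and its gene name in the scanner files was one of these symbols. This gave 16 probes in 43 spots, out of 50599 probes in 58717 spots that carried 36337 gene names. All 16 probes passed the detection filter (a p-value under 0.05 against the background on all 6 arrays), as did 31807 probes and 23810 gene names of the whole array. All 16 were also flagged as well above background on every array.

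BxPC-3 is a human pancreatic cancer cell line that is grown here under the skin of female BALB/c (nu/nu) mice aged 8 to 10 weeks. Treatment started at a tumor volume of 150 mm3 and lasted 21 days, with 3 oral doses per week of DFX suspended in saline at 200 mg/kg, or of the vehicle alone. Total RNA of each excised tumor was hybridized to a single-color human 60-mer array, 1 tumor per array. The host mice lack mature T cells, but the tumors can hold other mouse cells, and mouse RNA can bind human probes. In such bulk RNA, fewer cells of a type and less RNA per cell cannot be told apart. The p-values below measure only the spread between these tumors.

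BCL2 family proteins control the permeability of the outer mitochondrial membrane. The effectors BAX and BAK1 form pores in that membrane, which lets cytochrome c leave the mitochondrion and activates caspases. The anti-apoptotic proteins hold the effectors and the BH3-only proteins in check, and the BH3-only proteins, which are induced or activated by stress, damage or loss of growth signals, relieve that hold or activate the effectors. Much of this control acts on the protein, which an RNA array does not measure.

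Values are quantile-normalized log2 intensities. A log2 difference of DFX minus Control below 0 means a lower signal in the DFX-treated tumors. The probes that carry the result are shown by the last 30 of their 60 bases, so that a reader can see which stretch of the transcript each one reads. Letters are in lower case and AATAAA, the canonical polyadenylation signal, is in capitals where it occurs.
BCL2 A_23_P352266: aaaaatacggtaaggatactttacatggtt
BCL2 A_33_P3355185: tgtgtgtggagagcgtcaaccgggagatgt
MCL1 A_24_P336759: tatcatgtatctctaaggacctaaaagcac
BCL2L11 A_24_P122921: gggtaattgccactttacttgtgcaatact
BCL2L11 A_33_P3398526: tgactctgactctcggactgagaaacgcaa
BCL2L11 A_33_P3251932: tatggtcattggtgattaAATAAAatgtat

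The 2 BCL2 probes lie on the minus strand of hg19 at chr18:60790723-60790782 and chr18:60985401-60985460, 194678 bases apart. The array's annotation assigns the first to transcript variant alpha and the second to variant beta. The MCL1 probe lies at chr1:150547622-150547681 on the minus strand and is assigned to variant 1. The BCL2L11 probes lie on the plus strand at chr2:111925892-111925951 (variant 1), chr2:111878705-111878764 (variant 9) and chr2:111886352-111886411 (variant 9). No hg19 gene annotation was used here, so exon and UTR positions are not given. Over the full 60 bases, AATAAA was found in 2 of the 16 probes, 1 of PMAIP1 and BCL2L11 A_33_P3251932, and in 7.88% of all probes. Its reverse complement was found in 0 of the 16 and in 3.74% of all probes. The GC content of the 16 probes was 35.0% to 55.0%, with a median of 43.3% over all probes of the array. The longest run of bases shared by any pair of member probes was 9.

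The arrays shared 1 slide. Its row 1 held the control tumors and its row 2 those treated with DFX, so slide row and treatment cannot be told apart. Between 50.3% and 56.5% of the probes of an array were well above background, and log2 intensities correlated at 0.980 to 0.990 between arrays. All 8 tumor epithelium markers were well above background on every array. At the unadjusted p under 0.05 used below, 3 of them were higher in the DFX-treated tumors. These were EPCAM, KRT8 and KRT18 (log2 differences of 0.43, 0.48 and 0.27). KRT7 (-0.17), KRT19 (0.02), CDH1 (0.06), MUC1 (0.71) and CEACAM6 (0.22) did not reach that threshold. By brightest probe, 7.91% of all genes reached it in either direction, and 864 of 23810 were higher. Host markers differed less uniformly, and their values are given after the member results.

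The anti-apoptotic genes BCL2 and MCL1 and 1 of the 3 BCL2L11 probes were lower in the DFX-treated tumors, by 16.6% to 29.6% of the linear signal. The effectors and the other BH3-only probes did not pass the test. In limma, a moderated linear model fitted to all tested probes at once, 4 of the 16 member probes had an unadjusted p under 0.05, against 8.41% of all tested probes. All 4 were lower in the DFX-treated tumors, where 4.95% of all tested probes were called in that direction. Called in either direction were 7.31% of those tested probes that, like all 16 members, were well above background on every array. None of the 16 passed after Benjamini-Hochberg adjustment over all 31807 probes in limma (adjusted p from 0.514 to 0.995), and neither did any other tested probe.

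Of all 16 member probes, 14 had a lower mean in the DFX-treated tumors. Their median log2 difference was -0.15, and that of all tested probes was -0.02, of which 54.4% were lower. All 3 DFX-treated tumors were below all 3 control tumors for 5 of the 16 probes, against 9.15% of all tested probes. The opposite was seen for 0 of the 16 and for 2017 of all 31807 tested probes, so that 0 was near the share of all probes. The number of lower probes was also 14 under scaling to the 75th percentile. It was 16 under median scaling, which itself moved the median of all probes to -0.10, and 12 with normexp or no background correction. When each gene was represented by its brightest probe, 2 of 10 genes, BCL2 and MCL1, were called, against 7.91% of all 23810 genes.

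**Figure D1:**
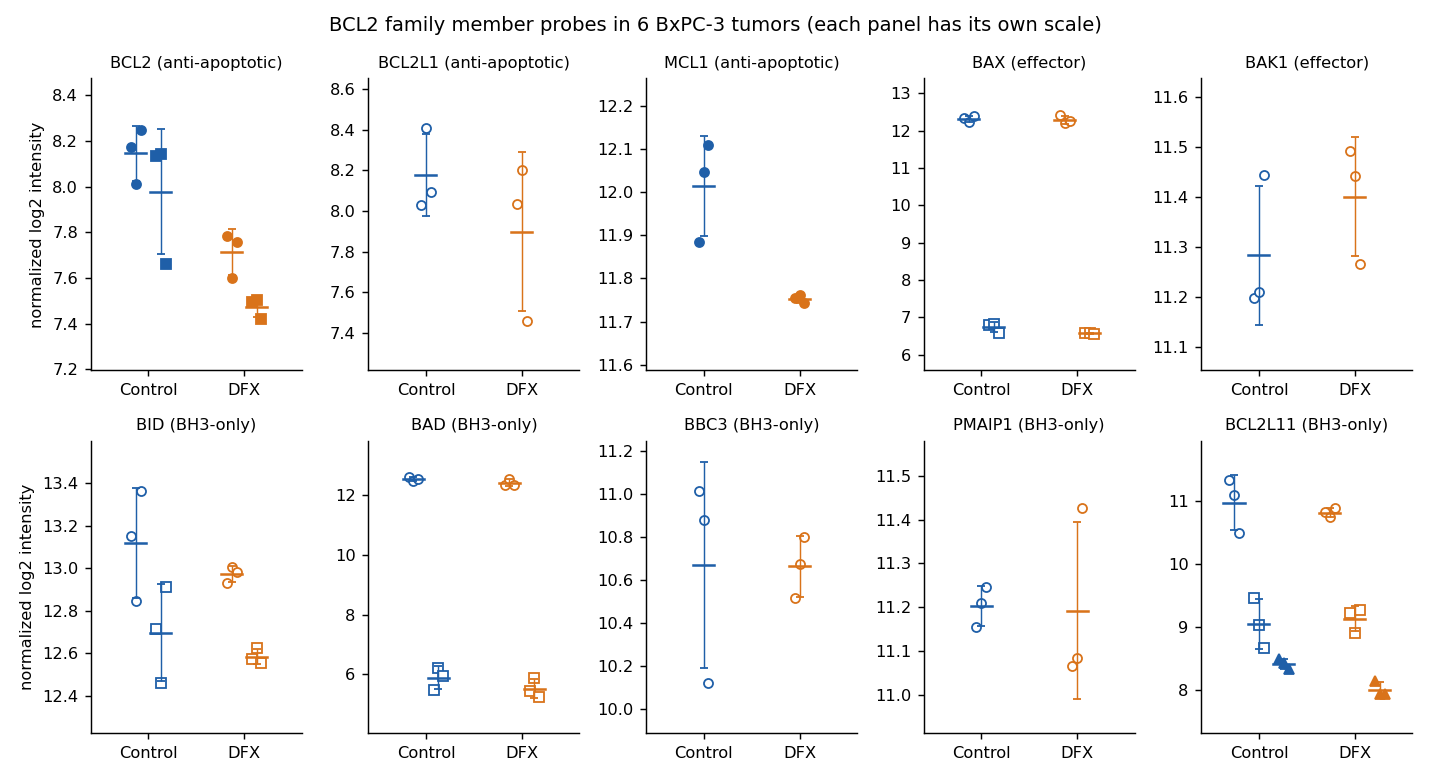
Normalized log2 intensity of each member probe in the 3 control (blue) and 3 DFX-treated (orange) tumors, with 1 panel per gene on its own scale. Each point is a tumor, each marker shape a probe, and bars are the mean ± SD. Filled symbols mark the 4 probes with an unadjusted p under 0.05 in limma, 2 of BCL2, 1 of MCL1 and 1 of BCL2L11, in which all DFX-treated tumors sit below the control tumors.

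BCL2, which holds BAX, BAK1 and BH3-only proteins in check, was lower with both of its probes. BCL2 A_23_P352266 read 8.18, 8.01 and 8.25 in control tumors 1, 2 and 3 and 7.79, 7.60 and 7.76 in DFX tumors 1, 2 and 3. The groups did not overlap, and a gap of 0.23 separated the lowest control tumor from the highest DFX-treated tumor. The means were 8.15 ± 0.12 and 7.71 ± 0.10 (SD, n = 3 each). The log2 difference was -0.43 (SE 0.12, 95% interval -0.72 to -0.15), a signal lower by 25.9%. The limma p was 0.0101 unadjusted and 0.514 after Benjamini-Hochberg adjustment, and an exact two-sided permutation test gave p = 0.1. That is the smallest value 3 tumors against 3 can reach. The 3 other called probes reached it too, as did BAX A_33_P3341144, which was not called.

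This BCL2 probe was printed in 10 spots on each array. Spots ranged from 7.89 to 8.40 over the control arrays and from 7.38 to 7.95 over the DFX arrays, so that single spots overlapped slightly while the tumor means did not. The SD between the spots of an array was 0.075 to 0.13, and repeat spots are technical repeats of 1 tumor, not replicates. BCL2L1 and BAX also had a probe in 10 spots. Their spot SDs were 0.037 to 0.089 and 0.028 to 0.045.

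**Figure D2:**
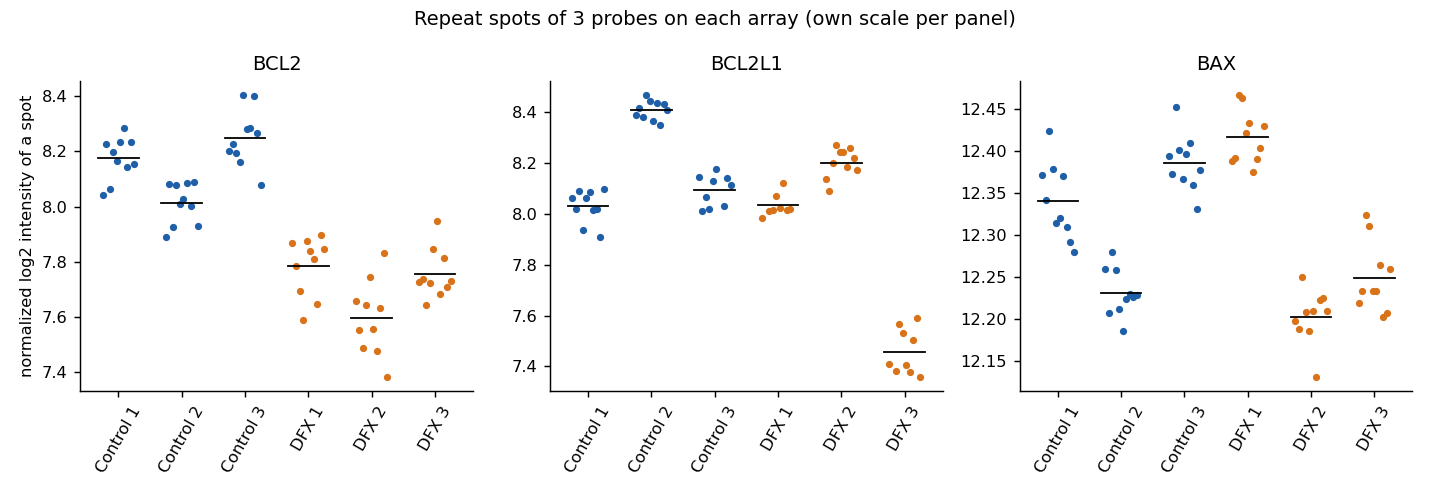
Normalized log2 intensity of each repeat spot of the BCL2, BCL2L1 and BAX probes printed 10 times, by tumor (control blue, DFX orange, black line the mean of the spots, own scale per panel). For BCL2 the spot means of all 3 DFX-treated tumors lie below those of the control tumors, while for BCL2L1 only DFX tumor 3 stands below the others and for BAX the groups overlap.

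The second BCL2 probe, A_33_P3355185, was read from 1 spot per array. It read 8.13, 8.14 and 7.66 in the controls and 7.49, 7.51 and 7.42 under DFX. Control tumor 3 was the low control value, and the groups were 0.16 apart there. The log2 difference was -0.51 (SE 0.16, 95% interval -0.90 to -0.12), a signal lower by 29.6%. Its limma p was 0.0192 unadjusted and 0.545 after Benjamini-Hochberg adjustment. The call was lost without control tumor 1 (log2 difference -0.43), without control tumor 2 (-0.42) and without DFX tumor 3 (-0.48). The log2 differences of the 2 BCL2 probes were 0.07 apart, with an exact permutation p of 0.9 for that gap.

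MCL1, a short-lived protein that binds BAK1 and BH3-only proteins, read 11.89, 12.05 and 12.11 in the controls and 11.75, 11.76 and 11.74 under DFX. The DFX-treated tumors lay almost on one value, below all control tumors by a gap of 0.12. Means were 12.01 ± 0.12 and 11.75 ± 0.0099 (SD, n = 3 each). The log2 difference was -0.26 (SE 0.11, 95% interval -0.52 to -0.0026), a signal lower by 16.6%, with a limma p of 0.0483 and a Benjamini-Hochberg adjusted p of 0.592. The MCL1 call was lost in 9 of the 18 processing alternatives. It did not survive leaving out control tumor 2 (log2 difference -0.24), control tumor 3 (-0.21), DFX tumor 1 (-0.26), DFX tumor 2 (-0.27) or DFX tumor 3 (-0.26), while the direction did.

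BCL2L1, whose main protein BCL-XL is anti-apoptotic, showed no call. Its probe reads transcript variant 1 (chr20:30253324-30253383, minus strand). It read 8.03, 8.41 and 8.09 in the controls and 8.03, 8.20 and 7.46 under DFX. DFX tumor 3 was low and the other DFX-treated tumors lay within the control range. The log2 difference was -0.28 (95% interval -0.83 to 0.27, limma adjusted p = 0.748), and -0.06 without DFX tumor 3.

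The effectors gave no call. BAX A_23_P208706 (chr19:49464904-49464963, plus strand, assigned to variant sigma) read 12.34, 12.23 and 12.39 in the controls and 12.42, 12.20 and 12.25 under DFX. These groups overlapped, and the log2 difference of -0.03 had a 95% interval of -0.30 to 0.24. BAX A_33_P3341144 (chr19:49464454-49464513, assigned to variant beta) read 6.81, 6.83 and 6.59 against 6.58, 6.58 and 6.57. The groups just failed to touch, by 0.01, with a log2 difference of -0.17 (95% interval -0.44 to 0.10, limma adjusted p = 0.705). BAK1 (chr6:33540585-33540644, minus strand) read 11.20, 11.21 and 11.44 in the controls and 11.49, 11.44 and 11.27 under DFX. It overlapped between groups, with a log2 difference of 0.12 (95% interval -0.19 to 0.42) that was -0.006 under median scaling.

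BAX A_23_P208706 and BCL2 A_23_P352266, both printed in 10 spots, were also followed relative to each other within each array. Their log2 difference, BAX minus BCL2 and relative to its control mean, was -0.01, 0.05 and -0.04 in the controls and 0.46, 0.43 and 0.32 under DFX. The mean of this quantity under DFX was 0.40 with an SD of 0.074, and the SD over the controls was 0.042. It is a description of an unequal change and adds no test to that of BCL2. It holds for this pair of probes only. The dimmer BAX A_33_P3341144, with a log2 difference of -0.17 between the groups, was not followed in this way.

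Among the 9 BH3-only probes, 1 was called, against 8.41% of all tested probes, and it belonged to BCL2L11. BCL2L11 encodes BIM, a BH3-only protein that binds all anti-apoptotic members and can activate BAX and BAK1. BCL2L11 A_33_P3251932, whose end carries the AATAAA shown above, read 8.49, 8.42 and 8.33 in the controls and 8.15, 7.94 and 7.93 under DFX. All DFX-treated tumors were below the control tumors by at least 0.18. Means were 8.41 ± 0.083 and 8.01 ± 0.12 (SD, n = 3 each). The log2 difference was -0.41 (SE 0.11, 95% interval -0.69 to -0.13), or 24.7% lower, with a limma p of 0.0114 and a Benjamini-Hochberg adjusted p of 0.514.

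The other BCL2L11 probes did not show this. A_24_P122921 read 11.34, 11.09 and 10.49 in the controls and 10.82, 10.74 and 10.89 under DFX. Control tumor 3 was low, and the groups overlapped with a log2 difference of -0.16 (limma adjusted p = 0.861). Without control tumor 3 it was -0.40 and passed the unadjusted threshold. A_33_P3398526 read 9.46, 9.03 and 8.67 in the controls and 9.22, 8.91 and 9.28 under DFX, a log2 difference of 0.08 (limma adjusted p = 0.932).

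A_33_P3398526 and A_33_P3251932 lie 7647 bases apart and are assigned to the same transcript variant. Within each array the log2 intensity of the first minus that of the second was 0.97, 0.60 and 0.34 in the controls and 1.07, 0.97 and 1.35 under DFX. The groups did not overlap, with means of 0.64 ± 0.31 and 1.13 ± 0.20 (SD, n = 3 each). The log2 differences of the 2 probes were 0.49 apart. The exact permutation p was 0.1, the smallest possible, and 0.467 after Benjamini-Hochberg adjustment over the 7 pairs of probes of the same gene that were compared.

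BBC3 (PUMA) and PMAIP1 (NOXA), BH3-only genes that are induced by cell stress, did not differ beyond their spread. BBC3 (chr19:47724174-47724233, minus strand, variant 4) read 11.01, 10.88 and 10.12 in the controls and 10.52, 10.67 and 10.80 under DFX. Control tumor 3 was the low value, and the log2 difference of -0.007 had a 95% interval of -0.62 to 0.61. PMAIP1 (chr18:57570691-57570750, plus strand) read 11.16, 11.21 and 11.25 against 11.07, 11.08 and 11.43. Its high value was DFX tumor 3, and its log2 difference was -0.01 (95% interval -0.34 to 0.31). For both genes the sign changed with the background correction.

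BID, which caspase 8 cleaves to link death receptors to mitochondria, has probes at chr22:18218265-18218324 and chr22:18218182-18218241 on the minus strand. The first read 13.15, 12.85 and 13.36 in the controls and 12.93, 13.00 and 12.98 under DFX. The second read 12.72, 12.46 and 12.91 against 12.58, 12.62 and 12.56. In both probes the DFX-treated tumors were close together and lay inside the control range, with log2 differences of -0.15 (95% interval -0.52 to 0.22) and -0.11 (-0.46 to 0.23).

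BAD, a BH3-only protein that growth-factor signaling inactivates by phosphorylation, had a bright and a dim probe. A_33_P3262043 (chr11:64037483-64037542, minus strand) read 12.61, 12.47 and 12.53 in the controls and 12.36, 12.56 and 12.36 under DFX, a log2 difference of -0.11 (95% interval -0.38 to 0.16). A_33_P3402076 (chr11:64044428-64044487) read 5.46, 6.22 and 5.95 against 5.44, 5.87 and 5.24. Groups overlapped in both, and the second had the widest 95% interval of the 16 probes, -0.98 to 0.26.

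**Figure D3:**
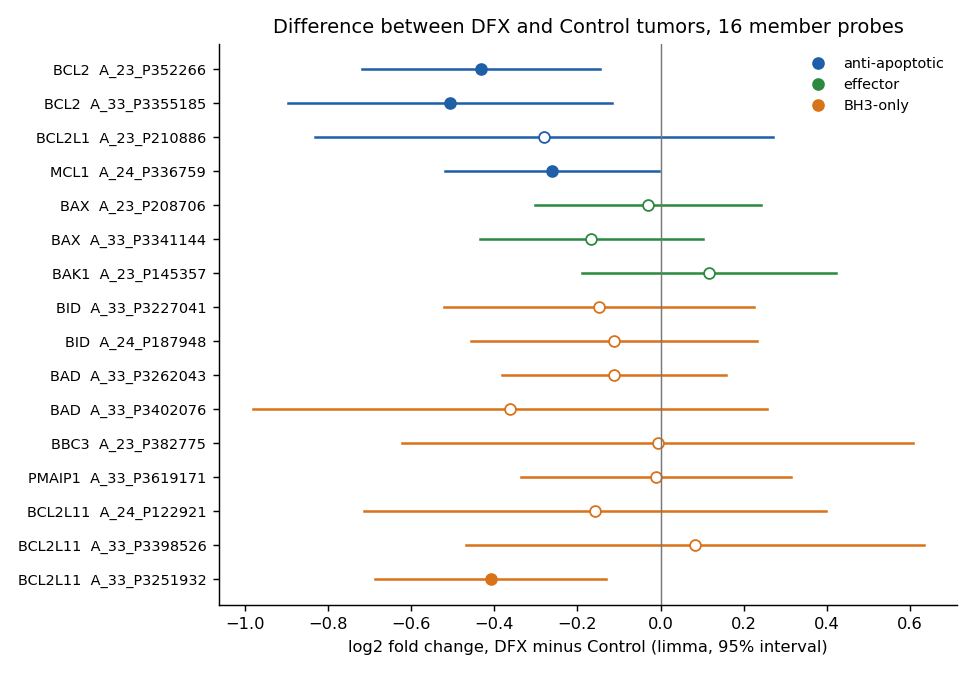
Log2 difference of DFX minus Control for each member probe, with its 95% interval from limma, colored by role. Filled points have an unadjusted p under 0.05, and they are 3 of the 4 anti-apoptotic probes (median -0.36), 0 of the 3 effector probes (median -0.03) and 1 of the 9 BH3-only probes (median -0.11). Of all tested probes, 8.41% were called (median -0.02).

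By role, 3 of 4 anti-apoptotic, 0 of 3 effector and 1 of 9 BH3-only probes were called, against 8.41% of all tested probes. The effector and BH3-only counts were near that share, and a difference between the roles was not tested. These counts rest on probes, and the 2 BCL2 probes share a gene and the same tumors. Within the slide, 2 columns held an array of each group (control tumor 1 with DFX tumor 2, and control tumor 3 with DFX tumor 3), and the other 2 columns held 1 group only. The log2 differences there were -0.58 and -0.49 for BCL2 A_23_P352266, -0.63 and -0.24 for BCL2 A_33_P3355185, -0.12 and -0.37 for MCL1, and -0.55 and -0.40 for BCL2L11 A_33_P3251932, all below 0. With the slide column as a block, limma called none of the member probes, and the log2 differences of the 4 were -0.54, -0.43, -0.24 and -0.47 in the same order.

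**Figure D4:**
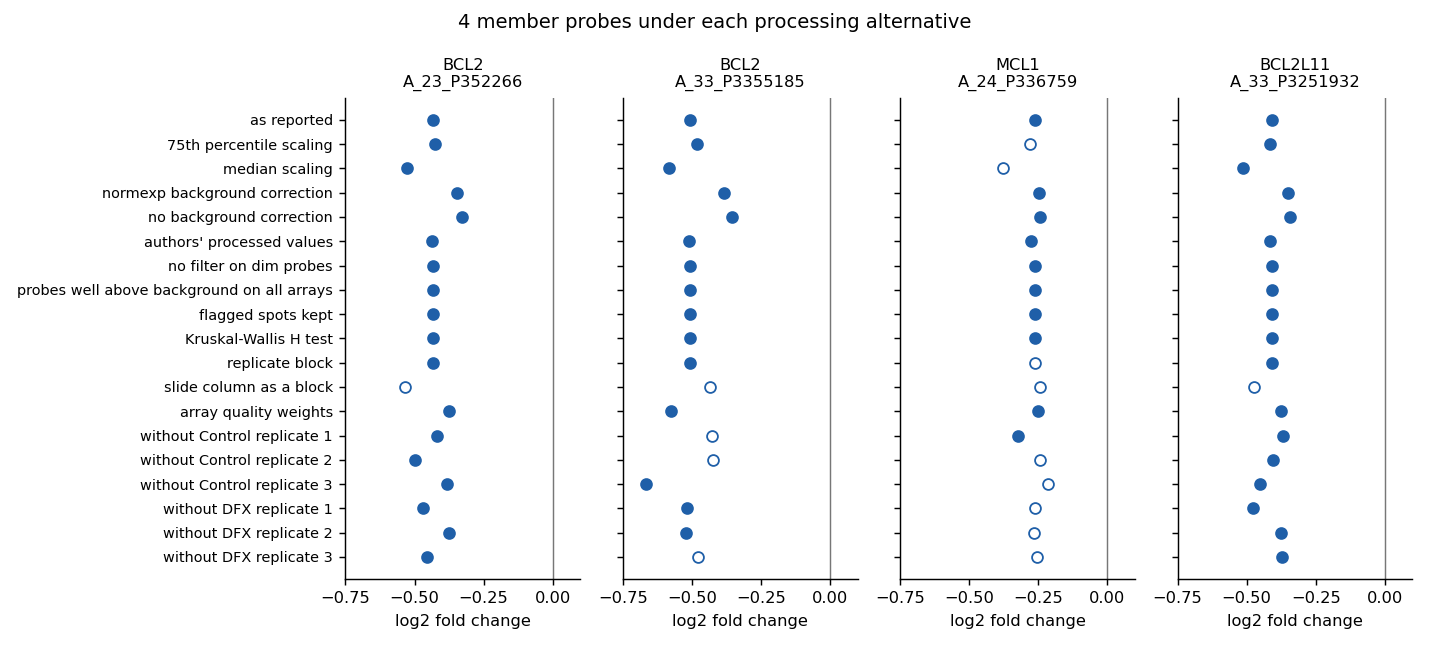
Log2 difference of DFX minus Control of the 4 called member probes as reported and in each of the 18 processing alternatives, with filled points for an unadjusted p under 0.05. All values lie below 0, and the calls of BCL2 A_23_P352266 and BCL2L11 A_33_P3251932 were kept in 17 alternatives, of BCL2 A_33_P3355185 in 14 and of MCL1 in 9.

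The genes whose pattern over the 6 tumors was most like that of BCL2 A_23_P352266, over 24361 probes of other genes with a value, well above background, in every tumor, were XLOC_010706, LEPR and ATP5E, with Pearson correlations of 0.996, 0.993 and 0.993. They read 5.42 to 5.68, 4.92 to 5.23 and 6.23 to 6.46 in the DFX-treated tumors, and 5.88 to 6.22, 5.57 to 5.77 and 6.67 to 6.96 in the control tumors. The points share 6 arrays and their normalization, and the correlations are a description with no test.

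In 4 lists of other apoptosis genes, by brightest probe, 55 of 57 genes were tested, and 2 were called, both higher in the DFX-treated tumors. Of all 23810 genes, 7.91% were called in either direction and 864 were called higher. The 2 higher calls among 55 genes were near that share. With normexp or no background correction, 5 genes of these lists were called. The median log2 difference of the 55 genes was 0.01, against -0.01 over all genes. BNIP3 and FASLG have 1 probe each, which did not pass the detection filter.

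E2F1, a transcription factor of the cell cycle that can also induce apoptosis genes, read 9.38 to 9.53 in the controls and 9.74 to 10.12 under DFX. The groups did not overlap, with a log2 difference of 0.48 (SE 0.13), a limma p of 0.0117 and a Benjamini-Hochberg adjusted p of 0.514. E2F1 was among 12 upstream regulators of the members, of which it alone was called by brightest probe (median -0.08), while dimmer probes of MDM2 and MAPK8, among others, also had an unadjusted p under 0.05, with log2 differences of -0.37 and -0.34, as was seen afterwards. The other call, BCL2L14, a less studied BCL2 family gene, was named after its value was seen. It read 7.52, 7.76 and 6.80 in the controls and 8.87, 7.67 and 8.35 under DFX, so the groups overlapped. Its log2 difference was 0.94 (SE 0.38, limma adjusted p = 0.588). The BCL2L14 call was lost without control tumor 1 (log2 difference 1.02), control tumor 3 (0.66), DFX tumor 1 (0.65) or DFX tumor 3 (0.91).

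Of 13 other BCL2 family genes, BCL2L14 was the 1 called (median -0.02). BCL2L10, a BCL2 homolog, and HRK, a BH3-only gene, each had a log2 difference of -0.47 and no call (limma adjusted p of 0.613 and 0.627). None of 19 apoptosome, caspase and inhibitor genes (median 0.02) and none of 11 death receptor and adaptor genes (median 0.07) was called in limma by brightest probe. BIRC3, an inhibitor of apoptosis, had a log2 difference of 0.57 (limma adjusted p = 0.598).

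**Figure D5:**
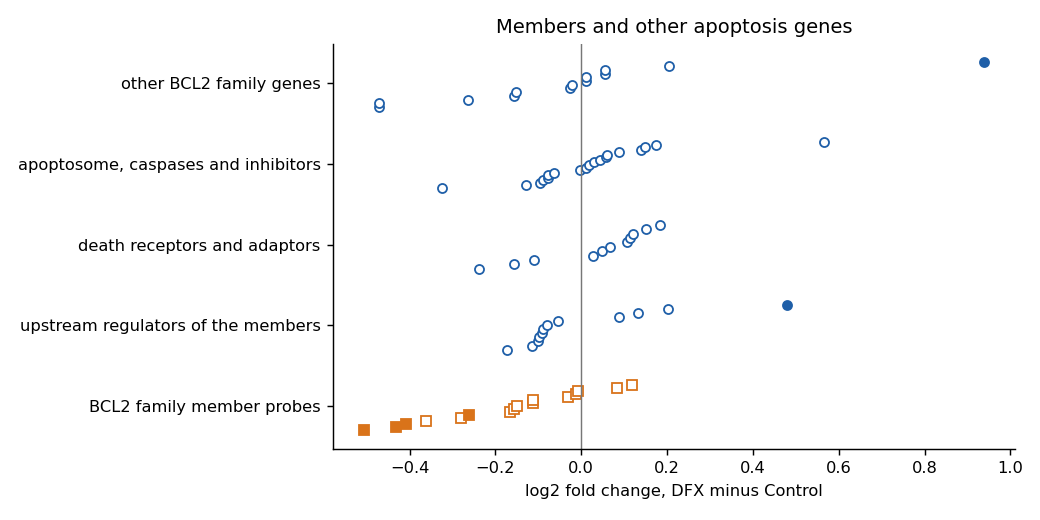
Log2 difference of DFX minus Control for the tested genes of 4 other apoptosis lists (circles, brightest probe of each gene) and for the 16 member probes (orange squares), with filled symbols for an unadjusted p under 0.05 in limma. The filled circles are BCL2L14 (0.94) and E2F1 (0.48), both above 0, while the 4 filled squares are all below 0. By brightest probe, 864 of all 23810 genes were called higher.

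Markers of host cells gave the following values beside these results. Sums of linear intensity took the brightest probe of each marker on the array, whether or not it passed the detection filter. For the 8 leukocyte markers the sum was 2018 to 2347 in the control tumors and 2120 to 2486 in the DFX-treated tumors. Of these markers 7 were tested, and 0 were called in limma. CSF1R, PDGFRB and KDR were well above background on no array. Fibroblast markers summed to 13760 to 22720 and 12700 to 15720, with DCN lower (log2 difference -1.30) and LUM higher (0.87). Endothelium markers summed to 495.9 to 950.3 and 583.3 to 620.1, with a median log2 difference of -0.19 over the 4 tested, of which PECAM1 was called higher (1.27), while VWF and CDH5 (-0.58 and -0.09) and KDR were not called. Red blood cell markers summed to 6762 to 8037 in the control tumors and 3134 to 3292 in the DFX-treated tumors, with HBA2 and HBD lower (-1.93 and -1.12). The tumor epithelium markers summed to 646300 to 659900 and 671400 to 683100. The part of these shifts in the member results was not tested.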

How the data were processed

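The authors deposited a scanner file per array with linear intensities, background p-values and flags for each spot, made with Agilent Feature Extraction (version 9.5.1.1 per the labels, 10.7.1.1 per the file headers), and a table of their quantile-normalized intensities, used here as an alternative. Groups came from the sample labels. The deposited background-subtracted intensity was log2-transformed and quantile-normalized over non-control spots. Outlier-flagged values (1398 spots, of which 4 in BCL2L1) were then dropped, each probe's remaining spots were averaged, and a probe was tested when its background p-value was below 0.05 in every one of the 6 tumors. No spot was saturated.

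The comparison used limma 3.58.1 (lmFit, then eBayes) under R 4.3.3, two-sided, over all 31807 probes (prior degrees of freedom 2.04). The study's methods name no test specific to the arrays. They give Kruskal-Wallis as the test of in vivo data, and it was run as an alternative. The script was tested on simulated data. The precision is limited by the 6 arrays. Gene names and hg19 positions are those of the array, and all 10 member symbols were in the RefSeq table of GRCh38.p14. The members, lists and tests were chosen with earlier results of these data known. All members were named. From other lists, genes were named when the unadjusted p was under 0.05 without overlap. For the member with the lowest p, the 3 most alike genes were named. Genes outside these rules, among them BCL2L14, BCL2L10, HRK, BIRC3, MDM2, MAPK8 and uncalled markers, were named with their values known. The 18 alternatives covered normalization, background, filters, flags, test, blocks, weights and each tumor left out. Values of some genes of the other lists are not reported here.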

Additional observations from a re-analysis of the deposited data

How the results depend on the processing

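With 3 tumors a group, no member probe passes adjustment over all probes, and the calls rest on unadjusted p-values. Of 2675 called probes, 58.8% were lower in the DFX-treated tumors. This share was 42.6% with scaling to the 75th percentile and 71.8% with median scaling, while the 4 member calls were lower in each setting that called them. The count of all called probes was 1418 with the slide column as a block and 4927 by Kruskal-Wallis. With 3 tumors a group, the Kruskal-Wallis p is 0.0495 whenever the groups do not overlap. Its calls therefore repeat the absence of overlap and are no further test. Member calls (4 as reported) fell to 0 with the slide column as a block, were 5 with the Kruskal-Wallis H test, which added BAX A_33_P3341144, and ran from 2 to 4 when a tumor was left out, with 2 without control tumor 2 or DFX tumor 3. Calls among other apoptosis genes (2 as reported) were 5 with normexp or no background correction, 4 by Kruskal-Wallis or with probes well above background only, 1 with no filter on dim probes and 0 with the slide column as a block. They ran from 1 (without DFX tumor 1) to 3 when a tumor was left out.

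The labels number the tumors 1 to 3 in each group, but deviations of same-numbered tumors correlated at 0.027, 0.027 and 0.016, so the numbers were not taken to pair the tumors. With the replicate number as a block, 3 member probes (MCL1 was lost), 1 other apoptosis gene and 2419 probes in all were called.

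MCL1 also lost its call with scaling to the 75th percentile (-0.28) and with median scaling (-0.38). The sign turned only in probes without a call. With median scaling it was -0.0063 for BAK1 and -0.012 for BCL2L11 A_33_P3398526. With normexp and with no background correction it was 0.0066 and 0.0074 for BBC3, and 0.022 in both for PMAIP1. The slide column as a block gave 0.17 for BBC3 and 0.054 for PMAIP1, and array weights gave 0.039 for BAX A_23_P208706. With a tumor left out, values ran from -0.28 to 0.16 for BBC3, -0.13 to 0.051 for PMAIP1, -0.093 to 0.013 for BAX A_23_P208706, -0.40 to 0.026 for BCL2L11 A_24_P122921 and -0.11 to 0.29 for BCL2L11 A_33_P3398526. Over the 18 alternatives the log2 difference was -0.54 to -0.33 for BCL2 A_23_P352266, -0.67 to -0.36 for BCL2 A_33_P3355185, -0.51 to -0.34 for BCL2L11 A_33_P3251932 and -0.38 to -0.21 for MCL1. E2F1 lost its call with median scaling (0.37) and with the slide column as a block (0.48). Adjusted p-values of the 4 called member probes were 0.320 or more in limma or the Kruskal-Wallis alternative. The cause of these changes was not tested.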
